A study of Mus musculus with 14 samples.

Results

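Chemokines and their receptors were examined in 2 reproductive organs, ovary and uterus, of aged mice. The members were every gene of the deposited table whose symbol in the GENCODE M21 annotation starts with Ccl, Cxcl, Ccr or Cxcr and a digit, which gave 52 of 21853 genes: 23 CC chemokines, 12 CXC chemokines, 11 CC receptors and 6 CXC receptors. RNA sequencing had been done on ovaries and uteruses of female C57BL/6J mice aged 28 weeks. The OT group (n = 4) was injected in the tail vein with AMSC-CM, the medium conditioned by mesenchymal stem cells from human amniotic membrane, at 1 µL per g body weight 6 times, 4 days apart, and the OC group (n = 3) had received saline on that schedule. Before this treatment, mice of both groups had been given PMSG and hCG, 10 IU each and 48 h apart. Every library thus came from an animal that was gonadotropin-primed before the first injection. The conditioned medium was concentrated from 20 to 2 mL and came from cells of 3 donors, and no young mice were among the 14 libraries.

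Chemokines are small secreted proteins that bind to matrix and endothelium and steer leukocytes that carry the matching receptor. Some are made steadily by stromal, lymphatic or epithelial cells and keep resident cells in place, whereas others are induced during inflammation and draw monocytes, eosinophils, lymphocytes or neutrophils into a tissue. In the ovary they take part in ovulation and in the breakdown of the corpus luteum, and in the uterus they set which leukocytes enter the endometrium over the estrous cycle.

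The values were FPKM, fragments scaled to transcript length and to the mapped fragments of a library, so levels could be set side by side between genes. Total FPKM ranged from 374816 to 577494 per library, and the highest belonged to the OT1 uterus, where 12.7% of the total lay in 10 genes. The 11 ovary markers summed to between 3550 and 4635 FPKM in ovaries and to at most 24.7 FPKM in uteruses. The 10 uterus markers summed to between 3841 and 6771 FPKM in uteruses and to at most 1465 FPKM in ovaries. Each library thus carried its labelled organ. The ovary libraries were not of ovary alone, since 6 markers of oviduct and ciliated cells summed to between 517 and 1031 FPKM there. In uteruses those 6 summed to between 6.40 and 185 FPKM. In uteruses, 10 markers listed for stratified epithelium, as found in the vagina and cervix, were summed. They gave 4.06, 13.9 and 2.93 FPKM in OC mice and 277, 45.1, 802 and 391 FPKM in OT mice. Among these genes, Upk3a belongs to the bladder lining, and it was at 48.7 FPKM in the OT1 uterus and listed at 0 in every other uterus. The part of these tissues in the results below was not tested.

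Of the 52 members, 48 were above 0 in at least 1 library, and Ccl1, Ccl21b, Ccl26 and Ccl27b were listed at 0 in all 14. A mean of at least 0.5 FPKM over the 7 libraries of an organ was required for testing, which 28 members passed in the ovary and 32 in the uterus. Just outside the limit in the ovary lay Cxcl1 and Cxcl9 at means of 0.398 and 0.401 FPKM, and just inside lay Ccl24 and Ccr1 at 0.539 and 0.743 FPKM. In the uterus, Cxcl3 and Ccl22 at 0.346 and 0.451 FPKM fell outside, and Ccl17 and Ccl3 at 0.560 and 0.756 FPKM fell inside. Fewer receptors passed, since 3 of 11 CC receptors and 3 of 6 CXC receptors were tested in the ovary, against 22 of the 35 ligands.

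A few ligands made up most of the chemokine RNA. In the ovary, Cxcl12, Ccl21a, Ccl8, Cxcl14 and Ccl6 held 75.4% of the summed ligand level of 212 FPKM, and in the uterus Ccl21a, Cxcl12, Ccl8, Cxcl17 and Ccl6 held 79.3% of 554 FPKM. Cxcl12, a stromal ligand that retains CXCR4-bearing cells, was highest in the ovary at 56.6 ± 6.37 FPKM (SD, n = 7). Ccl21a, the lymphatic ligand of CCR7 that guides dendritic cells and T cells, was highest in the uterus at 158 ± 70.04 FPKM (SD, n = 7). Its partner Ccl19 and their receptor Ccr7 stayed below 1 FPKM in every library. Ccl21a is uncertain as a single gene, because 71.6% of the 50-base windows of its transcript also occur in another gene model, and the shares were 59.1% for Ccl19 and 66.4% for Ccl27a. The ligands of CXCR2 that attract neutrophils (Cxcl1, Cxcl2, Cxcl3 and Cxcl5) summed to at most 1.62 FPKM in ovaries and 4.75 FPKM in uteruses.

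Among the receptors the order differed between the organs. Cxcr4, the receptor of Cxcl12, held 46.3% of the summed receptor level of 35.7 FPKM in the ovary, followed by Ccr2, the monocyte receptor for Ccl2. In the uterus, Ccr2 held 56.9% of 53.6 FPKM. The plot of tested members by library shows these levels.

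**Figure D1:**
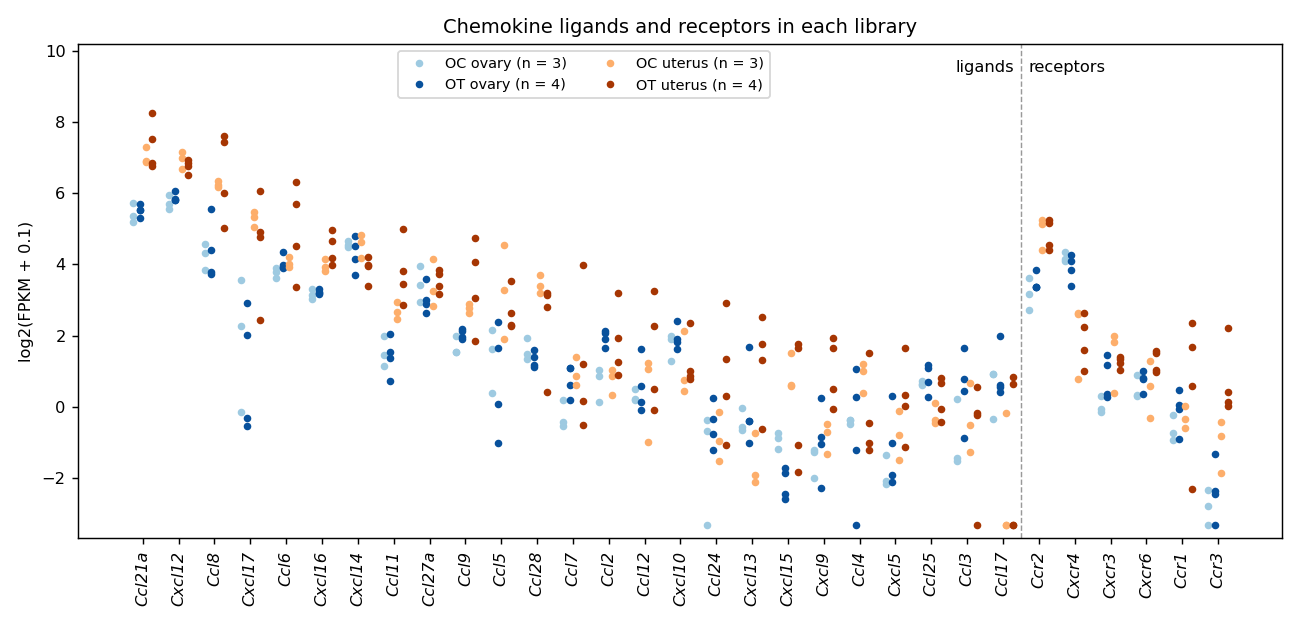
Level of 31 of the 32 tested members in each of the 14 libraries, as log2(FPKM + 0.1), with points coloured by group, ligands left of the dashed line and receptors right of it, both ordered by mean level in the uterus. Ccl21a and Cxcl12 lead the ligands, Ccr2 leads the receptors in uteruses and Cxcr4 leads them in ovaries, and points on the bottom line are listed at 0.

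The uterus carried more chemokine RNA than the ovary. Over the 52 members the mean levels summed to 248 FPKM in the ovary and 608 FPKM in the uterus, and the summed level per library ran from 211 to 280.4 FPKM in ovaries and from 418 to 929.7 FPKM in uteruses, without overlap. On log2(FPKM + 0.1), with limma over all 14 libraries, 17 of 32 tested members differed by at least 1 at a Benjamini-Hochberg adjusted p under 0.05, against a background of 19.6% of all tested genes. Of these, 15 were higher in the uterus (background 10%) and 2 lower (background 9.59%). Among the 15, Ccr3, Cxcl15, Cxcl5 and Cxcl9 had ovary means of 0.0873, 0.257, 0.336 and 0.401 FPKM, under the limit of 0.5 FPKM. They entered the test only through the uterus, where they were higher, so the count rests in part on the filter. The median log2 difference was 0.95 over the members and -0.00 over all tested genes. In whole organs, fewer cells of a type and less RNA per cell cannot be told apart.

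The CXCL12 axis split between the organs. Cxcl12 was at 46.7, 62.2 and 52.4 FPKM in OC ovaries and at 56.8, 56.0, 66.4 and 55.8 FPKM in OT ovaries, against 103, 144 and 126 FPKM in OC uteruses and 91.5, 122, 116 and 109 FPKM in OT uteruses. Every uterus stood above every ovary, with a log2 difference of 1.05 ± 0.0977 (SE, limma adjusted p = 1.25e-06). Cxcr4 went the other way, at 20.2, 17.7 and 16.9 FPKM in OC ovaries and 10.4, 19.0, 17.0 and 14.4 FPKM in OT ovaries. In uteruses it was at 1.62, 6.07 and 5.97 FPKM in OC mice and at 2.93, 6.12, 1.91 and 4.67 FPKM in OT mice. All 7 uteruses lay below all 7 ovaries, and the log2 difference was -2.11 ± 0.312 (SE, limma adjusted p = 8.04e-05). Cxcr4 and Cxcl12 kept these directions when FPKM were rescaled to the same sum in every library (TPM), which moved the median of all tested genes by -0.24 and left Cxcl12 at 0.81, under the limit of 1.

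The promoters of this ligand and its receptor are shown because they had opposite orders in the organs. Both are RefSeq windows on GRCm38.p6, from 250 bases before to 50 bases after the annotated start, with TATAAA on either strand in capitals. Cxcl12 lies at chr6:117168285-117168584 on the plus strand and Cxcr4 at chr1:128592250-128592549 on the minus strand, where matches on the strands at -32 and -30 overlap. No TATAAA was found in the Cxcl12 window.
Cxcl12: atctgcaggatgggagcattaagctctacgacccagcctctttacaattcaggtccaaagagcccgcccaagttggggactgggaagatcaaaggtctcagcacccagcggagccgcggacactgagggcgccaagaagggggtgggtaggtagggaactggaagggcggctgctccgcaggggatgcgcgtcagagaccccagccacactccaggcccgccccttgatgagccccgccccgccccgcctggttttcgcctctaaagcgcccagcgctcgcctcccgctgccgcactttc
Cxcr4: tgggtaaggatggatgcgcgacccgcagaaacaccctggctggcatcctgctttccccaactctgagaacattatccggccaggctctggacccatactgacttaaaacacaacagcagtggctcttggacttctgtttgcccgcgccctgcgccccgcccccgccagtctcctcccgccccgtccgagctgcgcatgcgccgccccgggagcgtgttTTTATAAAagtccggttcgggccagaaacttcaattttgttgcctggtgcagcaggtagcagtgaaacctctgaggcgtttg

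Cxcl17 and Ccr3 had the largest positive differences between the organs, and Ccr3 had entered the test only through its uterus values. Cxcl17, a mucosal chemokine of epithelia, was at 0.808, 11.7 and 4.74 FPKM in OC ovaries and 0.587, 0.696, 7.47 and 3.96 FPKM in OT ovaries, and at 39.9, 44.5 and 33.3 FPKM in OC uteruses and 5.29, 66.7, 27.2 and 30.0 FPKM in OT uteruses. The OT1 uterus fell within the ovaries' range, and the log2 difference was 3.46 ± 0.715 (SE, limma adjusted p = 0.00119). Among ovaries, uterus marker sums were also highest in OC2 and OT3, at 1465 and 1177 FPKM, and the part of adjoining tissue in ovarian Cxcl17 was not tested. Ccr3, the eosinophil receptor, was below 0.3 FPKM in all 7 ovaries and at 0.175 to 4.56 FPKM in uteruses, with a log2 difference of 2.42 ± 0.436 (SE, limma adjusted p = 0.000409). Ccl8, a CCR8 ligand made by macrophages, had a log2 difference of 2.07, and Cxcl15, an epithelial ligand, of 2.06 (limma adjusted p = 0.000682 and 0.00512). Ccl5, a ligand of T cells and NK cells, was higher by 1.88 (limma adjusted p = 0.0105).

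Other ligands and receptors with higher uterine levels were called as well. Ccl11 (eotaxin, a CCR3 ligand) was higher by 1.77, Ccl21a by 1.73, Ccr2 by 1.57 and Ccl28 (an epithelial ligand of CCR10 and CCR3) by 1.46 on the log2 scale. Cxcl9, Cxcl5, Ccl9, Cxcl12 and Cxcl16 were higher by 1.02 to 1.32. Besides Cxcl12, the members with every uterus above every ovary were Ccl11, Ccl21a, Ccr2 and Cxcl16, that is 5 of 32 (background 11.5%), and Cxcr4 alone lay below (background 13.5%).

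Ccl17, a ligand of CCR4 on T cells, was the other member called lower in the uterus. It was at 1.80, 1.79 and 0.683 FPKM in OC ovaries, 1.37, 1.22, 3.86 and 1.44 FPKM in OT ovaries, 0, 0.785 and 0 FPKM in OC uteruses and 1.67, 1.46, 0 and 0 FPKM in OT uteruses. It was listed at 0 in 4 uteruses and overlapped with the ovaries in 3, and the log2 difference was -2.48 ± 0.771 (SE, limma adjusted p = 0.0155). Ccl25, the CCR9 ligand, was at -0.74 (limma adjusted p = 0.0160) and missed the limit of size. Ccl2, the main monocyte attractant, was at -0.02 ± 0.309 (SE, limma adjusted p = 0.961).

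Markers of some cell types moved with these differences, and others did not. All 6 NK cell markers, 6 of 7 mast cell markers and 3 of 6 lymphatic endothelium markers were called higher in the uterus, with summed levels of 17.7 to 52.3, 54.3 to 133 and 68.4 to 148 FPKM in uteruses against 2.53 to 12.6, 20.7 to 39.3 and 49.6 to 57.9 FPKM in ovaries. Of 5 markers of all leukocytes 2 were called higher (background 10%). All 5 were higher in the uterus at a limma adjusted p under 0.05, with a median log2 difference of 0.996. Of 10 macrophage markers 1 was called higher and 3 had a limma adjusted p under 0.05 (median 0.33). Blood endothelium markers had a median log2 difference of -0.37, with 1 of 7 called higher, and neutrophil markers one of -0.15, with 1 of 6 called higher and 1 lower. None of 7 B and plasma cell markers was called by limma, and 0 had an unadjusted p under 0.05 (median 0.01). Their part in the chemokine differences was not tested. A pseudocount of 1 in place of 0.1 gave 11 called members, 10 higher and 1 lower, and the OT libraries alone gave 10.

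**Figure D2:**
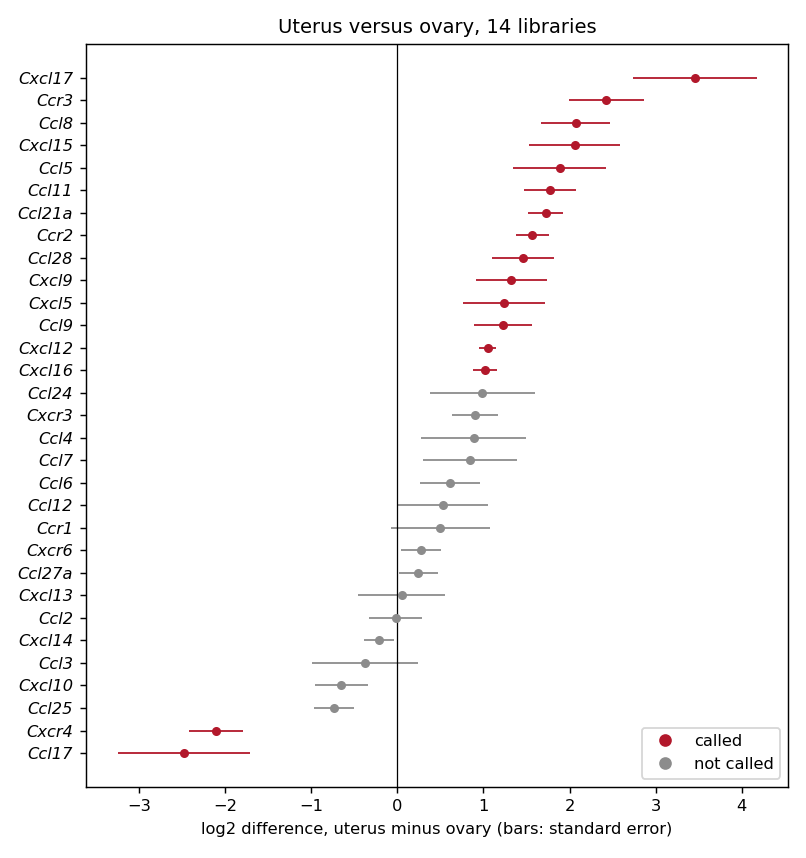
Log2 difference between uterus and ovary for 31 of the 32 tested members from 14 libraries, with bars for the standard error and called members in red. Cxcl17 and Ccr3 have the largest positive values, and Cxcr4 and Ccl17 are the only called members on the negative side.

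In the ovary, the monocyte attractant Ccl2 was the member called higher in OT than in OC mice. The study's limits, which it applied with Cuffdiff, are a log2 difference of 1 or more either way with p up to 0.05 before adjustment. With limma at these limits, 1 of 28 tested members was called, against a background of 0.451% of all tested genes (0.368% for higher). Ccl2 was at 1.93, 1.70 and 0.991 FPKM in OC ovaries and at 3.63, 3.01, 4.10 and 4.27 FPKM in OT ovaries. All OT values lay above all OC values, which held for this member alone (background 5.91%), and the log2 difference was 1.27 ± 0.246 (SE, limma adjusted p = 0.997). A two-sided exact permutation test returned p = 0.0571, the smallest that 3 against 4 libraries allow, and 0.0714 after adjustment over 5 tests. Only members already called by limma in the same libraries were given this test, so its p-values lend those calls no separate support.

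Its neighbours in function were close to the limits. Ccl7, which also binds CCR2, was at 0.645, 1.05 and 0.589 FPKM in OC ovaries and 2.01, 1.43, 2.02 and 1.04 FPKM in OT ovaries, with a log2 difference of 0.99 ± 0.320 (SE, limma adjusted p = 0.997). The OT4 value lay just below that of OC2, so the groups overlapped. Ccl3, a CCR1 ligand, was at 0.266, 1.06 and 0.247 FPKM in OC ovaries and 3.04, 0.448, 1.25 and 1.60 FPKM in OT ovaries, with a log2 difference of 1.42 ± 0.645 (SE, limma adjusted p = 0.997). Its groups overlapped through OC2 and OT2. Cxcr3, the receptor for interferon-induced ligands on T cells and NK cells, was at 1.14, 0.851 and 0.796 FPKM in OC ovaries and 1.19, 2.17, 2.63 and 1.10 FPKM in OT ovaries, with a log2 difference of 0.79 (limma adjusted p = 0.997).

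Most other ovarian members moved little. The members' median log2 difference was 0.22, beside -0.01 over all tested genes, and 20 of 28 were above 0, beside 46.6% of all tested genes. Ccl24, an eotaxin, was at 0.93 (limma adjusted p = 0.997) with an OC1 value of 0, and the lowest members were Cxcl17 at -0.88, Ccl5 at -0.62 and Ccl27a, a CCR10 ligand, at -0.42, none of them called. Differences of Cxcl12 at 0.13, Ccl21a at 0.10, Ccr2 at 0.31 and Cxcr4 at -0.29 were all within 2 standard errors. Ccl8 was between 13.3 and 23.96 FPKM in 6 ovaries and at 47.4 FPKM in OT2, Cxcl14 had a log2 difference of -0.26 and Ccl6 of 0.27.

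No gene of either organ passed an adjusted p under 0.05 between OT and OC by limma, and an unadjusted p under 0.05 was reached by 4.51% of tested genes in the ovary (650, of which 3 members) and 8.2% in the uterus (1160, of which 5 members). The ovarian count of called members went to 0 without OC3, to 3 without OC2 and to 3 without OT2, with Ccl3 and Ccl7 added. Ccl2 stayed called in 6 of the 7 fits that left out a replicate. All 10 macrophage markers had a positive log2 difference in the ovary (median 0.44, range 0.20 to 0.64, none called), and 4 of 10 adipocyte markers were called higher, with summed levels of 222 to 334 FPKM in OC and 268 to 1865 FPKM in OT ovaries. Their part in the result for Ccl2 was not tested.

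In the uterus, 4 of 32 tested members were called between OT and OC mice, all higher, against a background of 2.9% of all tested genes (2.23% for higher). They were Cxcl13, the B cell attractant that binds CXCR5, Cxcl9, an interferon-induced CXCR3 ligand, Ccr3 and Ccl11. Their values by library are in the plot of 6 members. Cxcl13, Cxcl9 and Ccr3 had OC means of 0.266, 0.473 and 0.429 FPKM, under the limit of 0.5 FPKM for testing. They entered only through their OT values, so entry depended on the difference itself. The count beside the background thus lends these calls no support.

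The promoter windows of the called members that had an entry are shown, with Cxcl10 beside its neighbour Cxcl9 because both are interferon-induced ligands of CXCR3 and Cxcl10 was not called. Matches to the NF-κB consensus, TATAAA and GAAA repeated after 2 bases of any kind, on either strand, are in capitals. Cxcl9 lies at chr5:92328030-92328329 (minus strand), Cxcl10 at chr5:92348840-92349139 (minus strand), Cxcl13 at chr5:95956689-95956988 (plus strand) and Ccr3 at chr9:124021721-124022020 (plus strand), all RefSeq on GRCm38.p6. Cxcl10 held NF-κB matches at -159 and, on both strands with an overlap, at -104 and -103, and Ccr3 held one at -179, where -1 is the base before the start.
Cxcl9: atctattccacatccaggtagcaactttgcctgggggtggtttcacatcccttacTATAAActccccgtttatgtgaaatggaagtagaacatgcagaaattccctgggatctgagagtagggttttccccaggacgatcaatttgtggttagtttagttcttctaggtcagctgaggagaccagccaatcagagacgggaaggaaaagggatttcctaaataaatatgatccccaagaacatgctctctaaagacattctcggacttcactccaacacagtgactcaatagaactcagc
Cxcl10: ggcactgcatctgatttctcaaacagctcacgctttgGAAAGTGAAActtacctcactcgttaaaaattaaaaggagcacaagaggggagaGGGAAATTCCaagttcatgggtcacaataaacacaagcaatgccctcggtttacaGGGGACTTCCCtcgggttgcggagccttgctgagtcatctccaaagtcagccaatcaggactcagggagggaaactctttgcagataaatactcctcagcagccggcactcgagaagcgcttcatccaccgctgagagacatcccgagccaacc
Cxcl13: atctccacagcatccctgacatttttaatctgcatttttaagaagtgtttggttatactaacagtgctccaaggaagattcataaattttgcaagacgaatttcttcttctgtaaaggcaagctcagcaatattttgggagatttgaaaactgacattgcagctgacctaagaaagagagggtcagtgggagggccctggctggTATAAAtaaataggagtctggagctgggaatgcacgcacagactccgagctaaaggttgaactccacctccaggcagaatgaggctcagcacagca
Ccr3: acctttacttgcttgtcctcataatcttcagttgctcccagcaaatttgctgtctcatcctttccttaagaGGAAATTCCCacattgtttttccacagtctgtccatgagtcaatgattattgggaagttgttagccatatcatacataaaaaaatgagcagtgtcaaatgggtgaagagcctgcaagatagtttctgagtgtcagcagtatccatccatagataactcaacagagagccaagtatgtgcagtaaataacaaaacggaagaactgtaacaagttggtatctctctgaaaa

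Cxcl13 was at 0.131, 0.164 and 0.504 FPKM in OC uteruses and at 3.29, 5.59, 2.40 and 0.546 FPKM in OT uteruses. The OT4 uterus was close to OC3 and the other OT uteruses were far above, and the log2 difference was 2.83 ± 0.746 (SE, limma adjusted p = 0.485). Cxcl9 was at 0.298, 0.608 and 0.512 FPKM in OC and at 3.68, 3.07, 1.31 and 0.856 FPKM in OT uteruses, with a log2 difference of 1.85 ± 0.542 (SE, limma adjusted p = 0.521). OT1 and OT2 were high and OT4 lay just above OC2. Cxcl10, its neighbour on chromosome 5, was at 1.26, 4.28 and 1.60 FPKM in OC and 1.70, 4.97, 1.62 and 1.92 FPKM in OT uteruses, with a log2 difference of 0.13 ± 0.520 (SE, limma adjusted p = 0.933) and overlapping groups.

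Ccr3 was at 0.644, 0.175 and 0.468 FPKM in OC and 4.56, 0.905, 1.24 and 0.986 FPKM in OT uteruses, with a log2 difference of 1.73 ± 0.633 (SE, limma adjusted p = 0.556). OT1 stood well above the other OT uteruses, and all 4 lay above the OC values. Its ligand Ccl11 was at 6.28, 7.65 and 5.46 FPKM in OC and 32.1, 13.9, 10.7 and 7.15 FPKM in OT uteruses, with a log2 difference of 1.08 ± 0.449 (SE, limma adjusted p = 0.599). OT4 fell within the OC range. Ccl24, another CCR3 ligand, was at 0.246, 0.800 and 0.412 FPKM in OC and 7.51, 2.42, 1.14 and 0.378 FPKM in OT uteruses, with a log2 difference of 1.76 ± 0.874 (SE, limma adjusted p = 0.616), and OT4 again lay within the OC range.

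**Figure D3:**
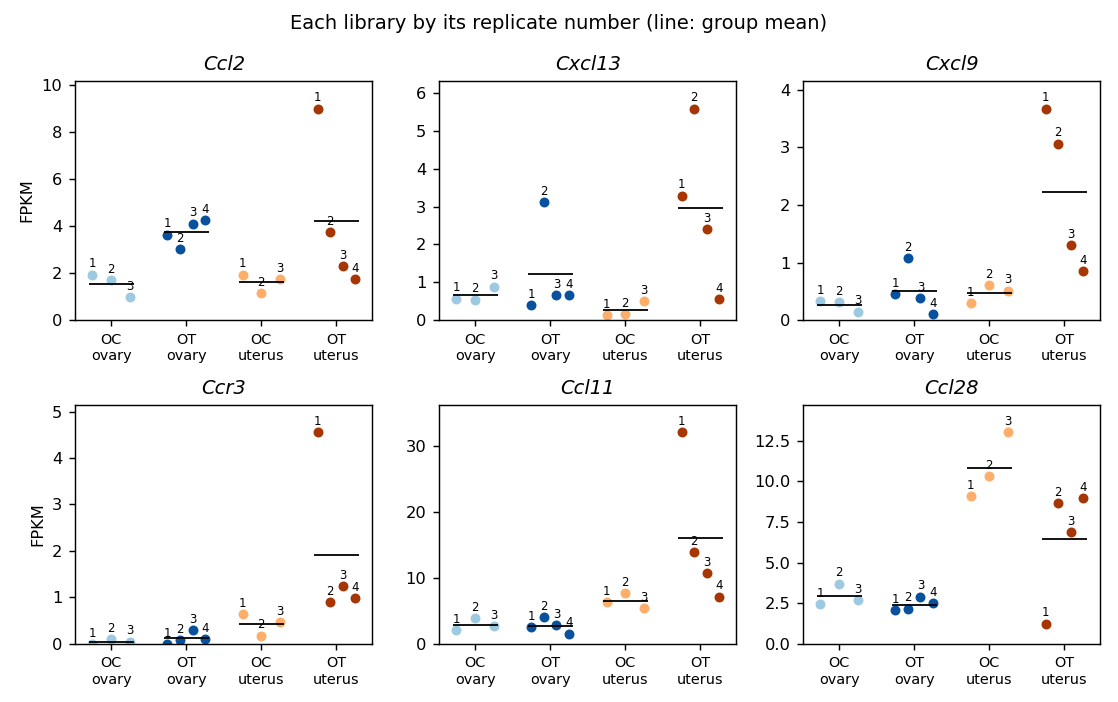
FPKM of Ccl2, Cxcl13, Cxcl9, Ccr3, Ccl11 and Ccl28 in each library, one panel per gene on its own linear axis from 0, with points numbered by replicate and a line at each group mean. In uteruses OT1 is highest for Ccl2, Cxcl9, Ccr3 and Ccl11 and lowest for Ccl28, and OT2 is highest for Cxcl13 in both organs.

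Exact permutation tests gave p = 0.0571 for Cxcl13, Cxcl9 and Ccr3 and p = 0.114 for Ccl11, or 0.0714 and 0.114 after adjustment over 5 tests. As in the ovary, only members already called were tested this way, so these p-values lend the calls no separate support. On the higher side the groups did not overlap for Cxcl13, Cxcl9 and Ccr3 (background 6.46%), which had entered only through their OT values. On the lower side this held for Ccl28 (background 5.48%). Ccl28 was at 9.08, 10.3 and 13.0 FPKM in OC and 1.24, 8.65, 6.86 and 8.99 FPKM in OT uteruses. OT1 lay far below the others, and the log2 difference was -1.05 ± 0.636 (SE, limma adjusted p = 0.627), not called.

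The remaining extremes were not called either. Ccl4, an inflammatory ligand of T cells and macrophages, was lowest at -1.17 (limma adjusted p = 0.625), and Cxcl15 was at -0.78 (limma adjusted p = 0.759). Cxcl14, an epithelial ligand, was at -0.65 ± 0.228 (SE, limma adjusted p = 0.55), under the limit of size, and Cxcl17 at -0.75 (limma adjusted p = 0.713). Ccl2 was at 1.93, 1.16 and 1.73 FPKM in OC and 9.003, 3.75, 2.28 and 1.75 FPKM in OT uteruses, with a log2 difference of 1.07 ± 0.524 (SE, limma adjusted p = 0.616). OT1 was highest, and OT4 lay within the OC range. The study, with Cuffdiff, had listed Ccl2 as higher in OT mice in the uterus as well as the ovary. The members' median log2 difference was 0.29 beside 0.01 over all tested genes, and 21 of 32 were above 0 beside 51.1% of all tested genes.

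The abundant uterine ligands of myeloid and lymphatic cells spread widely among the OT animals. Ccl8 was at 72.8, 80.9 and 74.9 FPKM in OC uteruses and at 196, 174, 63.7 and 32.3 FPKM in OT uteruses (log2 difference 0.27, limma adjusted p = 0.877). Ccl6, a myeloid ligand of CCR1, was at 16.1, 15.1 and 18.4 FPKM in OC and 79.9, 51.7, 22.9 and 10.23 FPKM in OT uteruses (0.93, limma adjusted p = 0.635). In both, OT1 and OT2 lay above every OC uterus and OT4 below. Ccl9, which also binds CCR1, had that order at 26.6, 16.8, 8.18 and 3.52 FPKM against 6.10 to 7.31 FPKM in OC uteruses. Ccl21a was at 159, 118 and 119.6 FPKM in OC and 304, 183, 108 and 115 FPKM in OT uteruses, again highest in OT1 and OT2. In contrast, Ccr2 ranged from 21.2 to 38.0 FPKM in OC and 21.3 to 38.0 FPKM in OT uteruses, and Cxcl12 had a log2 difference of -0.18. The OT1 uterus was highest for 15 of 32 tested members, beside 31% of all tested genes, and the OT2 ovary for 12 of 28, beside 16%.

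Cell type markers moved with the uterine members in those same libraries. Macrophage markers summed to 376, 436 and 413 FPKM in OC and 824, 1404, 469 and 437 FPKM in OT uteruses, with 1 of 10 called higher. Macrophage sums were thus high in OT1 and OT2. B and plasma cell markers summed to 7.64, 11.0 and 7.98 FPKM in OC and 42.6, 118.6, 17.5 and 16.7 FPKM in OT uteruses, with 5 of 7 called higher and none lower. The OT2 uterus was highest, as it was for Cxcl13. Jchain alone supplied most of each of these B and plasma cell sums, and in the OT1 uterus every other marker was at most 2.51 FPKM.

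Eosinophil markers other than Ccr3 summed to 1.76, 3.56 and 3.85 FPKM in OC and 17.2, 7.83, 7.05 and 3.02 FPKM in OT uteruses. Ear2 supplied most of these sums, and Epx, the eosinophil peroxidase that defines the cell, was listed at 0 in all 14 libraries. Adipocyte markers, all 10 of which were called higher, summed to between 83.9 and 276 FPKM in OC and to 11897, 1286, 2358 and 1277 FPKM in OT uteruses, and 7 of 10 stratified epithelium markers were called higher. NK cell markers summed to 20.2, 51.6 and 52.3 FPKM in OC and to between 17.7 and 26.8 FPKM in OT uteruses. The part of these cells in the chemokine differences was not tested.

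**Figure D4:**
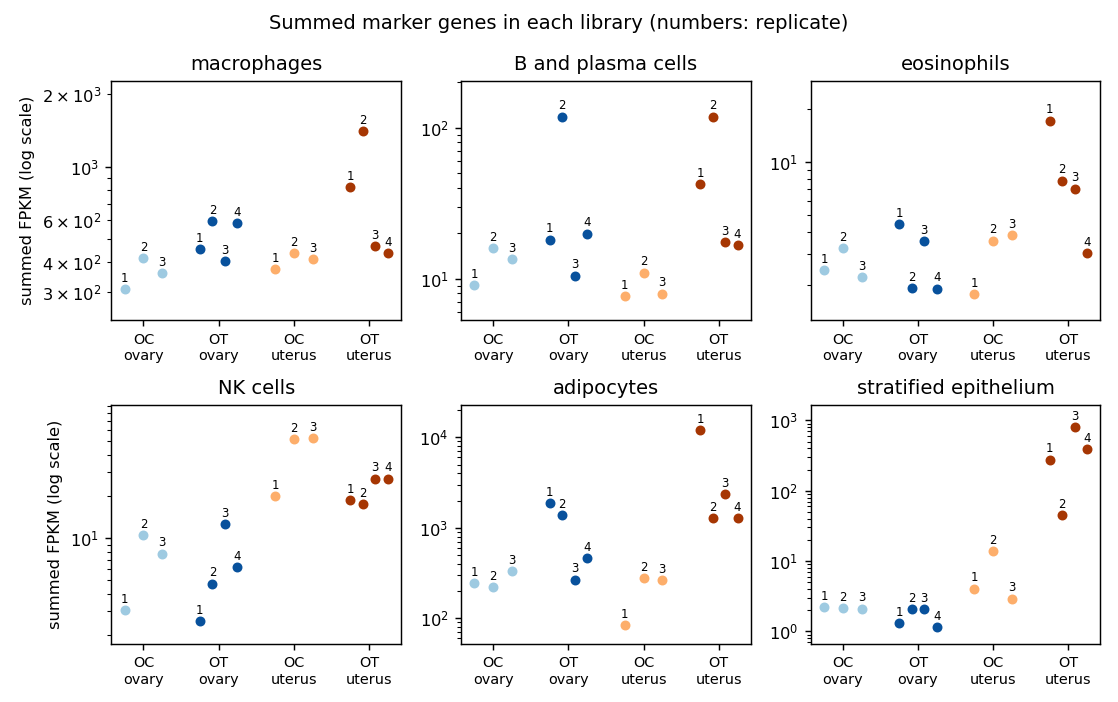
Summed FPKM of the marker genes of 6 cell types in each library on a log axis, with points numbered by replicate and no chemokine or receptor among the genes. Macrophage sums of OT1 and OT2 stand above the other uteruses, B and plasma cell sums of OT2 stand out in both organs, and adipocyte sums of all OT uteruses stand above all OC uteruses.

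The uterine calls depended on which libraries were fitted. Without OT1 and OT2, 3 members were called, none of them the 4 above: Cxcl5 higher and Ccl4 and Ccl7 lower. The 4 kept positive log2 differences there, 1.94 for Cxcl13, 1.31 for Ccr3, 1.06 for Cxcl9 and 0.45 for Ccl11, with limma adjusted p between 0.517 and 0.587, and the members' median turned to -0.22. Without OT4, 9 members were called, with Ccl2, Ccl24, Ccl6, Ccl9 and Ccr1 added, and without OC2 only Cxcl13 and Cxcl9 were. Cxcl13 and Cxcl9 were called in all 7 fits that left out a replicate, and Ccr3 in 6. Ccl11 was called in 1 of the 7, that without OT4, with log2 differences from 0.67 to 1.39, and it was not called with TPM. With a pseudocount of 1, Cxcl13 and Cxcl9 were called, and Ccr3 and Ccl11 had log2 differences of 0.89 and 0.99. These counts stand without the share of all genes called in the same fits, so a change in them is not particular to the members.

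**Figure D5:**
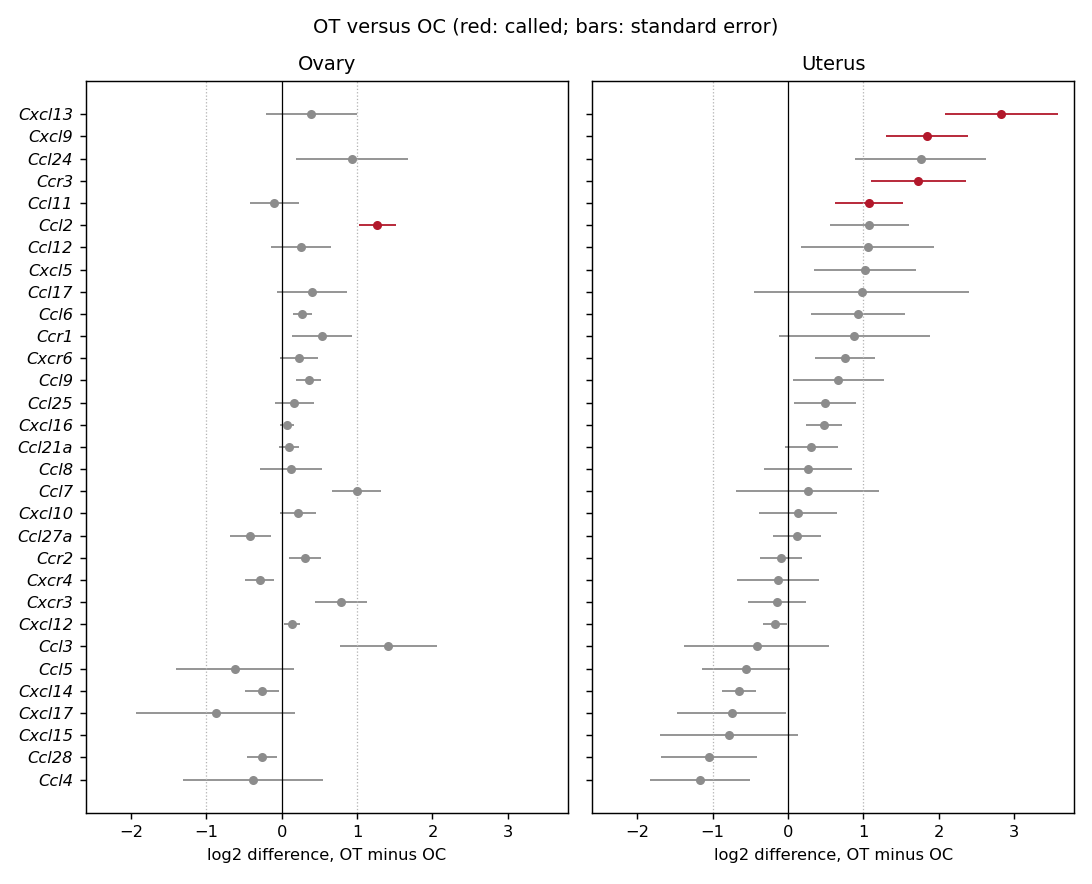
Log2 difference between OT and OC mice in the ovary (left, 27 of 28 tested members) and uterus (right, 31 of 32), ordered by the value in the uterus, with bars for the standard error, dotted lines at -1 and 1, and called members in red. Ccl2 is the called member in the ovary, and Cxcl13, Cxcl9, Ccr3 and Ccl11 are called in the uterus.

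The difference between the organs in the response was tested over the 14 libraries together. Of 32 tested members 1 was called, Cxcl13, against a background of 1.83% of all tested genes (1.28% for higher). In the ovary Cxcl13 was at 0.569, 0.539 and 0.882 FPKM in OC and 0.397, 3.12, 0.662 and 0.660 FPKM in OT mice. OT2 alone stood out there, and the fitted response was larger in the uterus by a log2 of 2.44 ± 1.02 (SE, limma adjusted p = 0.844), called in 3 of 7 fits that left out a replicate. The next highest were Cxcl9 at 1.33 and Ccr3 at 1.28, and the lowest were Ccl3 at -1.83, Cxcr3 at -0.94 and Ccl28 at -0.79, none of them called. Ccl2 was at -0.19 ± 0.618 (SE, limma adjusted p = 0.949). Its response was thus not shown to differ between the organs, although limma called it in the ovary alone. The count fell to 0 without OC2 or without OT3, and without OC1 or OT1 another member took the place of Cxcl13 (Cxcr3 or Ccl7, both lower). It rose to 2 without OT2 and to 3 without OT4, and to 4 without both OT1 and OT2, Cxcl13 not among them.

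The receptor of Cxcl13 stayed under the limit for testing, but it was high in the OT2 libraries of both organs. Cxcr5, the receptor of follicular B cells, was at 1.22 FPKM in the OT2 ovary and between 0 and 0.156 FPKM in the other 6 ovaries, and at 1.37 FPKM in the OT2 uterus and between 0 and 0.135 FPKM in the other 6. Ccr7 was also highest in the OT2 uterus at 0.923 FPKM, as were Ccr6 at 0.731 FPKM and Ccl22, a CCR4 ligand, at 1.69 FPKM. B and plasma cell markers summed to 118.5 FPKM in the OT2 ovary, most of it Jchain, and to between 9.09 and 19.9 FPKM in the others. Ccl19 was listed at 0 in all uteruses except OT2, at 0.514 FPKM. The part of B cells in these levels was not tested.

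Chemokine genes lie in clusters, and their neighbours did not always share a direction. On chromosome 11 from 82035571 to 82305690 (GRCm38), Ccl2, Ccl7, Ccl11, Ccl12 and Ccl8 all had positive log2 differences in the uterus, with a median of 1.05. In the alternative fits, Ccl7 went as low as -1.12, Ccl8 as low as -0.74 and Ccl12 as low as -0.22, while Ccl2 and Ccl11 stayed positive. In the ovary, 4 of 5 were positive in the main fit, with a median of 0.26. On the same chromosome from 83525778 to 83664683, Ccl9 and Ccl6 were positive in the uterus and Ccl5, Ccl3 and Ccl4 negative, with a median of -0.42. These counts are descriptions, and reads can be shared where sequences are, which concerned 2.27% of the 50-base windows of Ccr2.

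Partner genes outside the symbol rule were examined by lists. Of 13 further chemokines and receptors, 12 were tested in the ovary with 0 called, and 13 in the uterus with 1 called (background 2.9%). That was Xcl1, a ligand of NK cells and T cells for dendritic cells. It was at 7.002, 13.4 and 13.0 FPKM in OC and 6.21, 2.92, 4.83 and 5.07 FPKM in OT uteruses, with a log2 difference of -1.20 (limma adjusted p = 0.485). Every OT uterus was below every OC uterus (background 5.48%). Between the organs, 2 of 13, Xcl1 and the scavenger receptor Ackr1, were called higher in the uterus (background 10%). Ccrl2 alone was called lower (background 9.59%). Of 26 genes of chemokine receptor signalling none was called for OT against OC in either organ by limma, with 3 and 0 at an unadjusted p under 0.05. In the uterus 7 were called higher than in the ovary (background 10%), among them Rgs1 and Rgs2, which shorten receptor signals.

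Of 17 inducers of chemokines, 11 were tested in the ovary, and 2 of these were called higher in OT mice (background 0.368%). Il1b was at 0.485, 0.287 and 0.181 FPKM in OC and 0.734, 0.736, 0.696 and 2.78 FPKM in OT ovaries, and Tnf at 0.0932, 0.566 and 0.178 FPKM in OC and 0.983, 0.872, 0.753 and 0.575 FPKM in OT ovaries. Both had every OT value above every OC value (background 2.78%), Tnf only by 0.575 against 0.566 FPKM. The log2 differences were 1.49 and 1.42 (limma adjusted p = 0.997 for each). For Il1b and Tnf the OC mean lay under the limit of 0.5 FPKM, so they entered the test only through their OT values. The 2 calls beside the background thus lend no support to a difference. None of the inducers was called in the uterus, and of 8 genes that process or retain chemokines none was called in either organ by limma, while 0 ovarian and 2 uterine tests had an unadjusted p under 0.05.

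Promoter windows were at hand for 33 of the 52 members. A match to the NF-κB consensus on either strand was found in 8 of 33 windows (24.2%), beside 8.49% of all 32544 promoter windows of that length. The members with a match were Cxcl1, Cxcl2, Cxcl3, Cxcl10, Ccl20, Ccl9, Ccr1 and Ccr3. TATAAA was found in 24.2% of member windows beside 13.6% of all, GAAA repeated after 2 bases in 9.09% beside 3.45%, and TTCNNNGAA in 9.09% beside 8.33%. A match describes the letters in the window. Of the 8 members with an NF-κB match, Cxcl1, Cxcl2, Cxcl3 and Ccl20 were too low for testing in either organ.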

How the data were processed

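RNA-seq values of 14 libraries, from both organs of 3 OC and 4 OT animals, were grouped by their labels. The authors had trimmed the reads of stranded, rRNA-depleted libraries with Skewer 0.2.2, mapped them to mm10 with STAR 2.5 and deposited FPKM per gene from Cufflinks 2.2.1. The FPKM were not scaled further, and depth is unknown: the smallest steps between low values placed it within 0.827 to 1.18 of its typical value. All 21853 identifiers matched GENCODE M21 on GRCm38. Genes whose mean reached 0.5 FPKM entered limma 3.58.1 (R 4.3.3) on log2(FPKM + 0.1), per organ for OT against OC, and over 14 libraries for the organs and for the difference in response. The mean was taken over all fitted libraries, so a gene could enter only through the group where it was high. Fold changes on this scale understate those of low genes. Nothing in the labels says that mice were housed or handled apart, and the p-values set a group difference against the spread between these samples. The labels do not state that organs of 1 number came from 1 mouse, so the number was a block only in an alternative. The main fits over 14 libraries thus treated the organs of an animal as independent. OC and OT mice of 1 number are different mice. Exact permutation tests ran over 35 splits, only for members that limma had called in an organ, and limma was tested on simulated data. Promoters came from RefSeq, where the entry started within 300 bases of the M21 start.

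The members and lists were chosen with earlier results of these data known. Named were members called for OT against OC or for the difference in response, in each organ the 5 ligands and 3 receptors with the highest mean, the 3 largest differences each way, for the organs the 5 largest called each way, and Cxcl12, Cxcr4, Ccl2, Ccr2, Ccl5, Ccl21a, Ccl19 and Ccr7, and 1 member that is not reported here. Ccl7, Ccl9, Ccl22, Ccr6, Cxcl10, Cxcr5, Xcl1, Il1b and Tnf were chosen once their values had been seen. Alternatives changed the pseudocount, the filter or the scaling, or used robust eBayes, replicate blocks, 1 fit for both organs, each replicate left out in turn and, chosen after seeing the data, OT1 and OT2 left out. Figures were drawn with matplotlib 3.10.9. Protein sequences were not used here.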

Additional observations from a re-analysis of the deposited data

Results flagged for a closer look

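In 60 sets of 4 OT libraries, 5 held a library far from the other 3, beside about 1 in 20 that chance flags. Ccl17 was highest in the OT3 ovary at 3.86 FPKM, Ccr2 in the OT2 ovary at 14.2 FPKM and Cxcl12 in the OT3 ovary at 66.4 FPKM. Ccl28 was lowest in the OT1 uterus at 1.24 FPKM, and Cxcl10 was highest in the OT2 uterus at 4.97 FPKM. The difference between the organs in the response of Cxcl13 passed the unadjusted limits, with a log2 of 2.44 more in the uterus, but not adjustment (limma adjusted p = 0.844), and it passed them in 3 of 7 fits that left out a replicate. Cxcl13 was higher in 4 of 4 OT uteruses than in any OC uterus.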

How the results depend on the processing

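FPKM without counts give no depth, so the precision of low members such as Ccr3, Cxcl9 and Cxcl13 rests on the spread of 3 to 4 libraries. The ovarian count of 1 called member became 0 at an adjusted p under 0.05 or with a pseudocount of 1, 2 with a pseudocount of 0.01, no filter, scaling to the 75th percentile, TPM or a replicate block without OT4, and 3 without OT1 and OT2, and ranged from 0 to 3 with 1 replicate left out. The uterine count of 4 became 0 at an adjusted p under 0.05, 2 with a pseudocount of 1, 7 with no filter and 11 with a replicate block without OT4, and ranged from 2 to 9 with 1 replicate left out. The count of 17 between the organs became 11 with a pseudocount of 1 and 10 in OT libraries, and ranged from 14 to 17 with 1 replicate left out. For the difference in response, 1 became 0 at an adjusted p under 0.05 or with a pseudocount of 1, 2 with no filter, 3 with the number shared by the organs as a replicate block and 4 without OT1 and OT2, and ranged from 0 to 3 with 1 replicate left out. TPM moved the median of all tested genes by -0.13 for OT against OC in the uterus and by -0.14 for the difference in response. The counts in alternatives, here and above, stand without the share of all genes called in the same fit. A rise or fall in them is therefore not shown to be particular to the members.

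OC and OT mice of 1 number had a mean correlation of 0.152 for ovaries and 0.0178 for uteruses, as different mice, so the block gives no paired evidence. Ovary and uterus of 1 number correlated at 0.074 to 0.254 in their deviations, over 0.1 in 5 of 7, against -0.235 to 0.248 for other numbers, and 5 of 7 ovaries correlated best with the uterus of their number, a hint from the data, not the design. With that replicate block, 16 members were called between the organs, without Cxcl5, and Cxcl13, Cxcl9 and Ccl11 for the difference in response. Of 726 single-member values under an alternative, 641 kept direction and side of the threshold, 39 lost a call, 26 gained one and 20 changed sign. Ccl11 in the ovary turned to 0.13 with the replicate block without OT4 and ranged from -0.31 to 0.13 with 1 replicate left out, and Cxcl13 there ranged from -0.18 to 0.72. Without OT1 and OT2, Cxcl17 in the ovary turned to 0.57 and Cxcl15 in the uterus to 0.80. Between the organs, Cxcl13 turned to -0.0706 with a pseudocount of 0.01, -0.00604 with scaling to the 75th percentile, -0.24 with TPM and -0.22 without OT1 and OT2, and ranged from -0.20 to 0.30 with 1 replicate left out. Ccl2 between the organs turned to 0.0765 in OC libraries and ranged from -0.25 to 0.17, and its difference in response ranged from -0.66 to 0.18. The cause of these shifts was not tested.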
